A study of Macaca mulatta with 4 samples.

Results

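The proteasome genes of rhesus macaque (Macaca mulatta) morulae were selected by symbol. Every row of the deposited count table was taken whose matched symbol begins with PSMA, PSMB, PSMC, PSMD, PSME, PSMF or PSMG followed by a digit. This gave 44 of 21314 rows, each symbol having 1 identifier. Of these, 42 are proteasome subunit, regulator or assembly genes, and 41 of the 42 passed the filter on low counts. The other two, PSMC3IP, a meiotic recombination factor, and PSME3IP1, a nuclear protein named for its binding to PSME3, share only the letters and are given apart. PSMA5, PSMB6, PSMB7, PSMB10, PSMD7 and PSMG2 had no matched row and were not analysed here.

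The series concerns genomic imprinting before implantation, and compares RNA of AG with RNA of GG embryos, at the morula stage, a solid cluster of cells before the blastocyst forms. Its design names androgenetic embryos, whose nuclear genome is of paternal origin only, and gynogenetic embryos, whose nuclear genome is of maternal origin only. There were 2 libraries in each group, their cDNA amplified by the SMARTer Ultra Low Input chemistry, and no embryo with both parental genomes is among them. How many embryos went into a library, and whether replicates had separate parents, cannot be read from the labels. The p-values therefore cover only the spread among these 4 samples, which may be technical. Where 2 values are given for a group, replicate 1 comes first.

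The proteasome is the large protease that degrades proteins tagged with ubiquitin. Its barrel-shaped 20S core is made of alpha rings, which gate the entrance, and beta rings, which hold the cutting sites. The 19S cap binds ubiquitin chains, removes them, and unfolds the substrate with a ring of ATPases. Dedicated chaperones build both parts, and in early embryos the proteasome takes part in clearing proteins stored in the oocyte.

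Library totals ran from 14129608 to 29733977 estimated counts, and both AG libraries were shallower than both GG libraries. Over the 13227 tested genes, AG replicate 1 stood farther from the GG libraries (Spearman correlation across genes 0.803 to 0.821) than AG replicate 2 did (0.850 to 0.858). As a check of the labels, the paternally expressed gene SNRPN stood at 123 and 207 CPM (counts scaled to the library total) in AG and at 0.237 and 0.102 CPM in GG. Of 10 morula and pluripotency markers, 6 had a matched row, and all 6 were detected in every library. POU5F1 lay between 181 and 479 CPM. NANOG stood at 151 and 25 CPM in AG and 129 and 141 CPM in GG. Of the 6, KLF17 and DPPA4 were called lower in GG, 18.8-fold and 3.95-fold (edgeR adjusted p = 0.0294 and 0.0281). These 2 (33.3%) stand beside 6.58% of all tested genes called higher in AG. TFAP2C was also lower in both GG libraries, at 104 and 110.1 CPM in AG against 48.1 and 61.7 CPM, and was not called (edgeR adjusted p = 0.0779). Both GG libraries lay below both AG libraries for 3 of the 6 and above for 1, POU5F1. DESeq2 called 3 of the 6 higher in AG, beside 13.2% of all genes. GATA3, of the trophectoderm lineage, was near 0, at 0.285 to 2.08 CPM. Sperm markers (4 of 5 matched, 2 of them at 0 in every library) summed to at most 0.499 CPM. Cumulus markers (5 of 8 matched) summed to 2.78 and 0.254 CPM in AG and 1.61 and 10.9 CPM in GG. TNFAIP6 supplied most of this except in AG replicate 2, where it stood at 0.102 CPM.

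Most proteasome genes differed little between GG and AG morulae. Only PSMG4 and PSMD10, which both encode assembly chaperones, were called, and both were higher in GG. Fold changes are log2 values, positive where GG was higher, from edgeR's quasi-likelihood test, and calls required an adjusted p below 0.05 over the whole table. The 2 calls among 41 tested genes (4.88%) stand beside 12.9% of all tested genes called in either direction. By direction, 2 of 41 stand beside 6.34% higher in GG, and 0 of 41 beside 6.58% higher in AG. The share called among proteasome genes was thus not above the background. At an unadjusted p under 0.05 there were 12 proteasome genes (29.3%, against 32% of all tested genes), 9 with a positive and 3 with a negative fold change. With DESeq2, 3 of 41 were called (25.7% of all genes were), PSMG4 and PSMD10 higher in GG (12.5% of all genes) and PSMD2 higher in AG (13.2%).

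The number of calls moved with the libraries used. Without AG replicate 2, 12 of 41 proteasome genes were called, beside 29.8% of all genes, and without AG replicate 1, 4 of 41, beside 17.6%. Neither PSMG4 nor PSMD10 was called without GG replicate 1 or without GG replicate 2, when 0.907% and 0.522% of all genes were. The replicate block gave 1 of 41 beside 12.8%, and testing without a filter on low counts gave 3 of 41 beside 14.3%.

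The median log2 fold change of the 41 genes was 0.24, against 0.04 over all tested genes. Of the 41, 31 were above 0 (75.6%, against 51.1% of all tested genes) and 10 below. Without regard to sign, the median size was 0.35, against 0.80 over all tested genes and 0.69 over the 7097 with a mean of at least 10 CPM. Changes of over 2-fold were fitted for 6 of 41 (14.6%), against 41.8% of all tested genes. The share was 35.2% among tested genes with a mean of at least 10 CPM. The 6 proteasome genes were PSMG4, PSMD10, PSMA4, PSME2, PSMD2 and PSMB9. For 16 of 41 genes the whole 95% interval of the change lay within 2-fold in either direction. For the others a 2-fold difference was not excluded. The smallest change called for any gene was 0.89 on the log2 scale. The groups did not overlap for 22 of 41 genes (53.7%, against 64.1% of all tested genes). GG was above AG for 17 (41.5%, against 33.4%) and below for 5 (12.2%, against 30.7%).

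**Figure D1:**
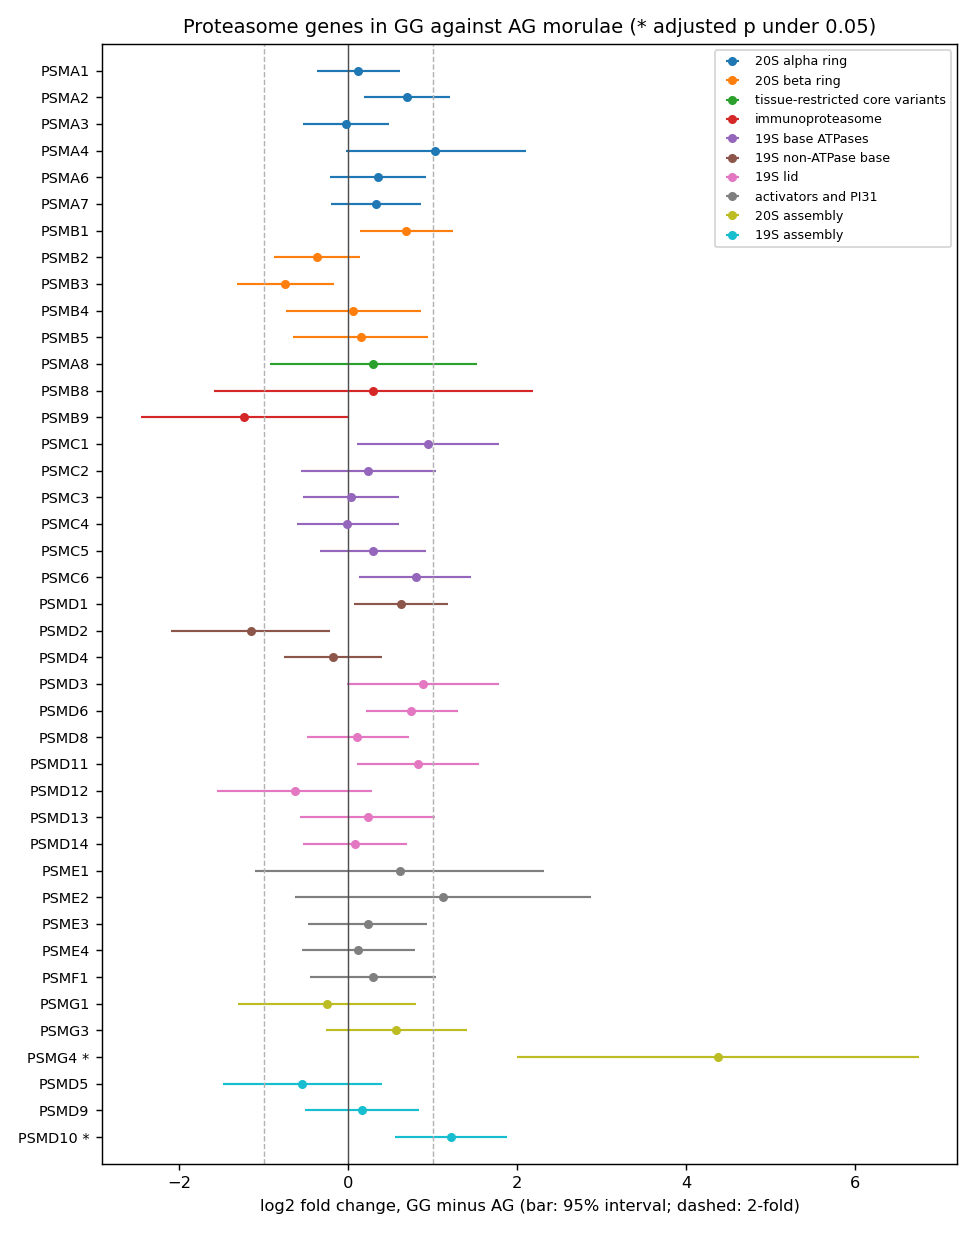
Log2 fold change, GG minus AG, of the 41 tested proteasome genes, with points for the edgeR estimate, bars for its 95% interval and colours for the part of the complex. Most points lie between the dashed lines of a 2-fold change, and PSMG4 (4.38) and PSMD10 (1.22) are the genes marked as called.

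**Figure D2:**
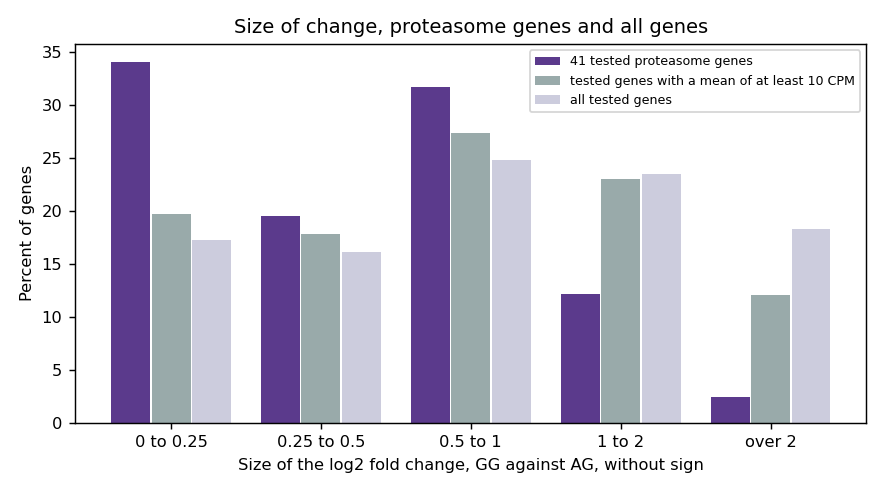
Percent of genes (vertical axis, from 0) by size of the log2 fold change without sign (horizontal axis), for proteasome genes, for tested genes with a mean of at least 10 CPM and for all tested genes. A size under 0.25 was found for 34.1% of proteasome genes and 17.3% of all tested genes, and a size over 2 for 2.44% and 18.3%.

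Summed over the 42 genes, the proteasome level was 11444 and 11703 CPM in AG and 12979 and 13746 CPM in GG. That is 1.14% to 1.36% of the counts of a library. The GG mean was 1.15 times the AG mean (11573 ± 183 CPM in AG, 13363 ± 542 CPM in GG, SD, n = 2; exact two-sided permutation p = 0.333, the smallest that 2 against 2 libraries can give). Without PSMG4 and PSMD10 the ratio was 1.14. All sums rest on CPM, which is not scaled to gene length, so levels are compared between libraries and not between genes. In bulk samples, fewer cells of a type and less RNA per cell cannot be told apart.

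Among the alpha-ring genes of the 20S core, all 6 with a row were tested and 0 were called by edgeR or DESeq2. At an unadjusted edgeR p under 0.05 there was 1 (16.7%, against 32% of all tested genes). In 5 of the 6, both GG libraries lay above both AG libraries, as they did in 33.4% of all tested genes. The alpha-ring sum was 4015 and 4112 CPM in AG and 5165 and 5323 CPM in GG, a ratio of 1.29 between the means (exact permutation p = 0.333).

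PSMA1 (ENSMMUG00000016446) stood at 969 and 956 CPM in AG and at 1043 and 1044 CPM in GG. The groups did not overlap, yet the difference was small, with a log2 fold change of 0.12 (95% interval -0.37 to 0.61). PSMA3 had the smallest fold change of the ring, at 896 and 811 CPM in AG against 839 and 836 CPM in GG. Its groups overlapped, with a log2 fold change of -0.03 (95% interval -0.53 to 0.48).

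PSMA4 had the largest fold change of the ring. It stood at 205 and 488 CPM in AG and at 649.8 and 767 CPM in GG, so that AG replicate 1 was the low library. The log2 fold change was 1.03 ± 0.43 SE and was not called (edgeR adjusted p = 0.166). Leaving out AG replicate 2, which leaves the low library alone in its group, gave 1.76 and a call (adjusted p = 0.00526). PSMA2, with both groups apart at 659 and 743 against 1158 and 1118 CPM, had the smallest unadjusted p of the ring and was not called (adjusted p = 0.0800). PSMA6 and PSMA7 had log2 fold changes of 0.35 and 0.33.

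Beta-ring genes had fold changes of both signs. All 5 with a row were tested and 0 were called by edgeR or DESeq2. At an unadjusted edgeR p under 0.05 there were 2 (40%, against 32% of all tested genes), 1 in each direction. The beta-ring sum was 1894 and 2286 CPM in AG and 2093 and 2223 CPM in GG (ratio 1.03, exact permutation p = 1). PSMB1, a structural subunit, stood at 458 and 556 CPM in AG and at 806 and 829.9 CPM in GG. GG was above AG in both libraries, with a log2 fold change of 0.69 ± 0.22 SE (edgeR adjusted p = 0.0952). PSMB3, also structural, went the other way, at 304 and 284 CPM in AG against 187 and 164 CPM in GG, a log2 fold change of -0.75 ± 0.23 SE (adjusted p = 0.0890). Neither was called, and both were called without AG replicate 2 (adjusted p = 0.0301 and 0.0323).

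PSMB2 stood at 738 and 799.7 CPM in AG and at 600.0 and 592 CPM in GG (log2 fold change -0.37, 95% interval -0.88 to 0.14). PSMB5, the subunit with chymotrypsin-like activity, stood at 291 and 474 CPM in AG and at 362 and 489 CPM in GG. Its groups overlapped, with a log2 fold change of 0.15 (95% interval -0.65 to 0.95). PSMB4, at 0.06, had the smallest change of the ring in size.

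Immunoproteasome subunits replace the standard cutting subunits in immune cells and after interferon. PSMB8, which takes the place of PSMB5, had 13 and 20 counts in AG and 34 and 23 counts in GG. These are 0.926, 1.02, 1.61 and 0.784 CPM, and the highest and lowest libraries are both GG. The log2 fold change was 0.30 with a wide 95% interval, -1.59 to 2.19. PSMB8 counts were 0.319% and 0.214% of PSMB5 counts in AG, and 0.447% and 0.160% in GG. The log2 ratio differed by 0.02 between the groups (-8.54 ± 0.42 in AG, -8.52 ± 1.04 in GG, SD, n = 2; exact permutation p = 1). The corresponding ratios of PSMB9 to PSMB6 and PSMB10 to PSMB7 were not analysed here.

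PSMB9, which takes the place of PSMB6, was at 8.55 and 6.96 CPM in AG and 3.13 and 3.48 CPM in GG. Both AG libraries lay above both GG libraries, with a log2 fold change of -1.23 ± 0.49 SE, which was not called (edgeR adjusted p = 0.155). In the RefSeq gene table of assembly T2T-MMU8v2.0, the span of PSMB9 overlaps that of TAP1, so the division of reads between these genes is uncertain. Of 7 blood and immune markers, 6 had a row, and their summed level was also higher in AG, at 142 and 68.1 CPM against 11.8 and 14 CPM in GG. PTPRC supplied most of it in AG (141 and 65.9 CPM). CD3E had at most 1 count in a library, and CD68 and ITGAM had 0 in AG. LYZ was higher in GG, at 0.427 and 1.27 CPM in AG against 5.37 and 9.82 CPM. The part of such cells in the PSMB9 values was not tested.

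Genes of the interferon and antigen-processing list were low. Of 12, 8 had a row and 5 were tested, with 0 called by edgeR, beside 12.9% of all tested genes. At an unadjusted edgeR p under 0.05 there were 2 of 5 (40%, against 32% of all tested genes), 1 in each direction. DESeq2 called 2 of 5, also 1 in each direction, beside 25.7% of all genes. IRF1, a transcription factor that drives immunoproteasome genes, stood at 9.55 and 11.9 CPM in AG and 4.61 and 3.92 CPM in GG (edgeR adjusted p = 0.112).

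The core also has variants restricted to 1 tissue, PSMA8 of the male germ line and PSMB11 of the thymus. PSMA8, which takes the place of PSMA7 in spermatocytes, was detected in every library, at 35.1 and 14 CPM in AG and 30.5 and 29.9 CPM in GG. Its 2 AG libraries enclosed both GG libraries, with a log2 fold change of 0.30 (95% interval -0.92 to 1.52). Of the sperm markers, PRM2 and ODF1 were at 0 in all 4 libraries, AKAP4 had 6 and 1 counts in AG, and TNP1 had 1 count in AG replicate 1, both at 0 in GG. Their part in the PSMA8 values was not tested. PSMB11 had 0 counts in every library, which allows a level of up to 0.102 to 0.214 CPM depending on the library (3 counts, for counting error only).

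**Figure D3:**
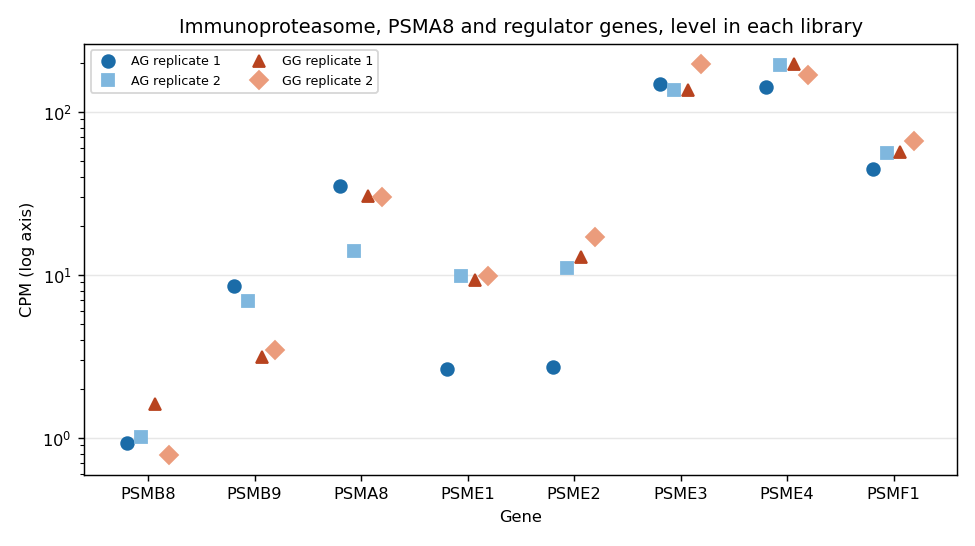
Level in CPM (log axis) of 8 genes in each of the 4 libraries, blue for AG and red for GG. PSME1 and PSME2 are low in AG replicate 1 alone (2.64 and 2.71 CPM), and both PSMB9 points of AG lie above those of GG.

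The 19S cap held 16 tested genes, of which 0 were called (edgeR, 6 at an unadjusted p under 0.05, 1 by DESeq2). Their summed level was 4527 and 4401 CPM in AG and 4489 and 4979 CPM in GG, so the groups overlapped (ratio 1.06, exact permutation p = 0.667). Fold changes ran from -1.15 for PSMD2 to 0.95 for PSMC1, with 12 above 0 and 4 below.

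All 6 ATPases of the base were tested. PSMC1 had the largest change among them, at 22.1 and 26.7 CPM in AG and 39.4 and 54.9 CPM in GG, a log2 fold change of 0.95 ± 0.34 SE (edgeR adjusted p = 0.12). PSMC6, also with both GG libraries above both AG libraries, had 0.80 (adjusted p = 0.106). For the other four the groups overlapped. PSMC5 stood at 272 and 345 CPM in AG and 420.1 and 339.6 CPM in GG. PSMC4 stood at 277 and 366 CPM in AG and 317 and 323 CPM in GG, with a log2 fold change of -0.01 (95% interval -0.61 to 0.60) whose sign turned with upper-quartile normalization (0.01).

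Of the non-ATPase base subunits, the scaffold genes PSMD1 and PSMD2 lay on opposite sides. PSMD1 stood at 250.3 and 292 CPM in AG and 414 and 423 CPM in GG, a log2 fold change of 0.63 ± 0.22 SE (edgeR adjusted p = 0.119). PSMD2, a docking site for proteins that deliver ubiquitinated substrates, stood at 230.3 and 455 CPM in AG and 138 and 170.4 CPM in GG. Both AG libraries were higher, AG replicate 2 by far, and the log2 fold change of -1.15 ± 0.38 SE was not called (adjusted p = 0.100). DESeq2 called PSMD2 (adjusted p = 0.0306), as did edgeR without a filter on low counts (adjusted p = 0.0419). Its value turned on the AG libraries, at -1.56 without AG replicate 1, a call that takes the spread from the GG pair alone (adjusted p = 0.0120), and at -0.61 without AG replicate 2, which was not called (adjusted p = 0.114). It was not called without GG replicate 1 or 2 either (adjusted p = 0.404 and 0.305). PSMD4, a ubiquitin receptor, overlapped between groups, with a log2 fold change of -0.18.

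All 7 lid genes with a PSMD symbol and a row were tested and 0 were called by edgeR or DESeq2. At an unadjusted edgeR p under 0.05 there were 2 (28.6%, against 32% of all tested genes). PSMD3 had the largest positive log2 fold change of the 7 lid genes, 0.89 ± 0.36 SE (edgeR adjusted p = 0.158). It stood at 18.5 and 27.8 CPM in AG and 38.2 and 47.6 CPM in GG. PSMD6 and PSMD11 were likewise higher in both GG libraries, with log2 fold changes of 0.75 and 0.83 (adjusted p = 0.0766 and 0.116). PSMD12, a structural lid subunit, stood at 1164 and 565 CPM in AG and 545 and 569 CPM in GG. Only AG replicate 1 stood apart there, by about the same amount from its own replicate as from GG, and the log2 fold change was -0.63 (95% interval -1.55 to 0.28). PSMD14, the deubiquitinase of the lid, was at 368 CPM in both AG libraries and at 331 and 449 CPM in GG. PSMD8 and PSMD13 also overlapped, at 0.11 and 0.23.

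**Figure D4:**
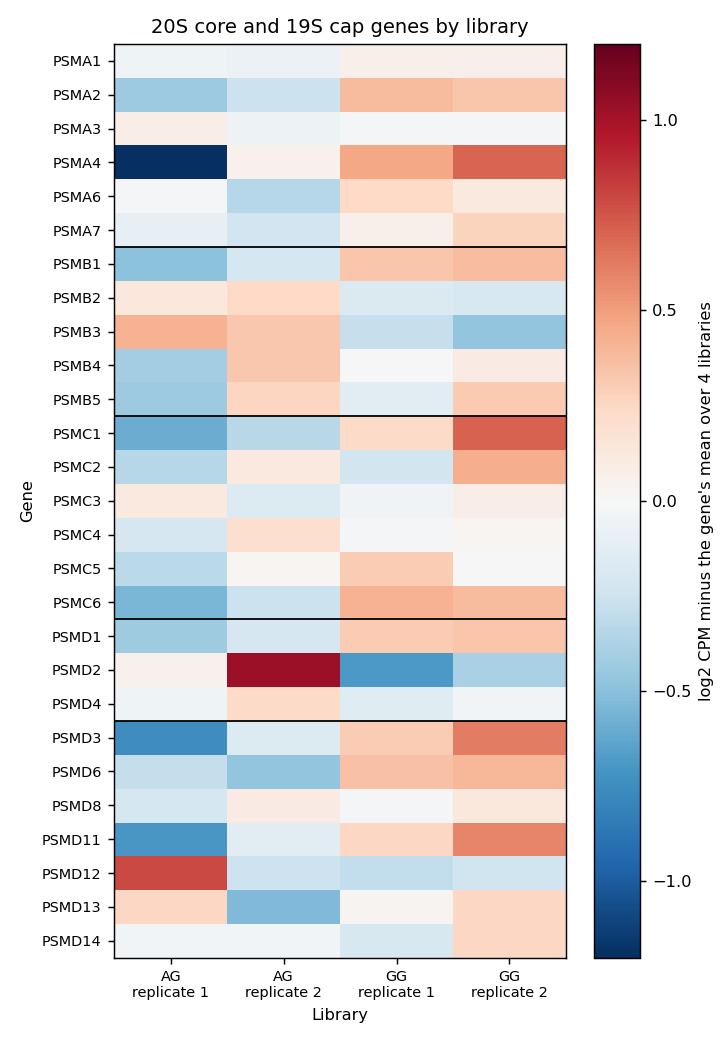
Log2 CPM of each tested 20S core and 19S cap gene in each library, minus the gene's mean over the 4 libraries (colour scale, red above and blue below the mean), with lines between alpha ring, beta ring, ATPases, other base subunits and lid. Of the 27 genes, 20 lie below their own mean in AG replicate 1 and 6 in GG replicate 2, while PSMB3 lies above its mean in both AG libraries.

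Part of the spread lay within the AG group. The AG libraries differed by more than 2-fold from each other in 6 of 41 proteasome genes (14.6%, against 31.6% of all tested genes). The GG libraries did so in 1 of 41, PSMB8 (2.44%, against 17.5%). Among tested genes with a mean of at least 10 CPM, the shares were 20% in AG and 5.2% in GG. The 6 proteasome genes of AG were PSMA4, PSMA8, PSMD12, PSME1, PSME2 and PSMG4. Relative to each gene's own mean, the median proteasome gene stood at -0.21 in AG replicate 1, -0.07 in AG replicate 2, 0.06 in GG replicate 1 and 0.21 in GG replicate 2 on the log2 scale. Across the 41 genes, the Spearman correlation of levels was 0.927 between the AG libraries, 0.980 between the GG libraries and 0.903 to 0.931 between groups. This is a description across genes, which share libraries and are not independent.

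Activators that can replace the cap, and the inhibitor PSMF1, had 5 tested members and 0 called by edgeR or DESeq2. At an unadjusted edgeR p under 0.05 there were 0, against 32% of all tested genes. PSME1 and PSME2 form the interferon-inducible PA28 activator. PSME1 stood at 2.64 and 9.80 CPM in AG and 9.26 and 9.82 CPM in GG. PSME2 stood at 2.71 and 11 CPM in AG and 12.8 and 17.0 CPM in GG. Both genes were low in AG replicate 1 alone, by 3.72-fold and 4.05-fold against AG replicate 2, and neither was called (edgeR adjusted p = 0.588 and 0.330).

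Leaving out AG replicate 2 gave a call for PSME2 (log2 fold change 2.44, adjusted p = 0.0192), and leaving out AG replicate 1 turned the sign of PSME1 (-0.04). The 2 genes lie next to each other in the RefSeq table of T2T-MMU8v2.0, and the span of EMC9 overlaps PSME1, so their counts may not be fully separate. Their counts were near 1 to 1 in AG (97.4% and 89.4% of PSME2) and lower in GG (72.2% and 57.6%), a comparison chosen after the values were seen (exact permutation p = 0.333).

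PSME3, the nuclear activator PA28 gamma, stood at 149 and 137 CPM in AG and 137 and 198 CPM in GG. PSME4, or PA200, linked to histone turnover in the male germ line, stood at 143 and 193 CPM in AG and 197 and 168 CPM in GG. Both overlapped between groups, with log2 fold changes of 0.23 (95% interval -0.47 to 0.93) and 0.12 (95% interval -0.55 to 0.79). PSMF1, which encodes the proteasome regulator PI31, had 0.29 (95% interval -0.45 to 1.04).

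Assembly genes held both called members, 2 of 6 tested (33.3%), beside 6.34% of all tested genes called higher in GG. Fold changes were above 0 for 4 of the 6 and below 0 for 2. PSMG1 and PSMG2 act as 1 chaperone pair in building the alpha ring, and PSMG3 and PSMG4 as another. PSMG4 (ENSMMUG00000011031) had 14 and 162 counts in AG and 2412 and 2336 counts in GG. These are 0.997 and 8.23 CPM in AG and 115 and 79.7 CPM in GG. Every GG library was far above every AG library, although the AG libraries themselves differed 8.25-fold. PSMG4 was 20.8-fold higher in GG (log2 fold change 4.38 ± 0.96 SE, 95% interval 2 to 6.75, edgeR adjusted p = 0.0419).

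The size of the PSMG4 change rested on which AG library was used, at 3.56 without AG replicate 1 (adjusted p = 0.00628) and 6.56 without AG replicate 2 (adjusted p = 0.00118). It lost its call without GG replicate 1 or 2 (log2 fold change 4.10 and 4.61, adjusted p = 0.149 and 0.136), when the spread comes from the AG pair alone and 120 and 69 of all genes were called. Its partner PSMG3 stood at 40.6 and 60.8 CPM in AG and 84.4 and 66.7 CPM in GG, also with both GG libraries above, but was not called (log2 fold change 0.57 ± 0.34 SE, adjusted p = 0.297). PSMG4 counts were 2.46% and 13.5% of PSMG3 counts in AG, and 136% and 119% in GG. This ratio was chosen after the values were seen (difference of 4.44 on the log2 scale, exact permutation p = 0.333, the smallest possible).

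In the RefSeq table no other gene's span overlapped PSMG4. Its neighbour SLC22A23, an organic ion transporter gene, had 0 and 6 counts in AG and 17 and 15 in GG (edgeR adjusted p = 0.348). PSMG1 stood at 195 and 119.8 CPM in AG and 175 and 89.6 CPM in GG. There, replicate 1 was the higher in each group, and the log2 fold change was -0.25 (95% interval -1.30 to 0.80).

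**Figure D5:**
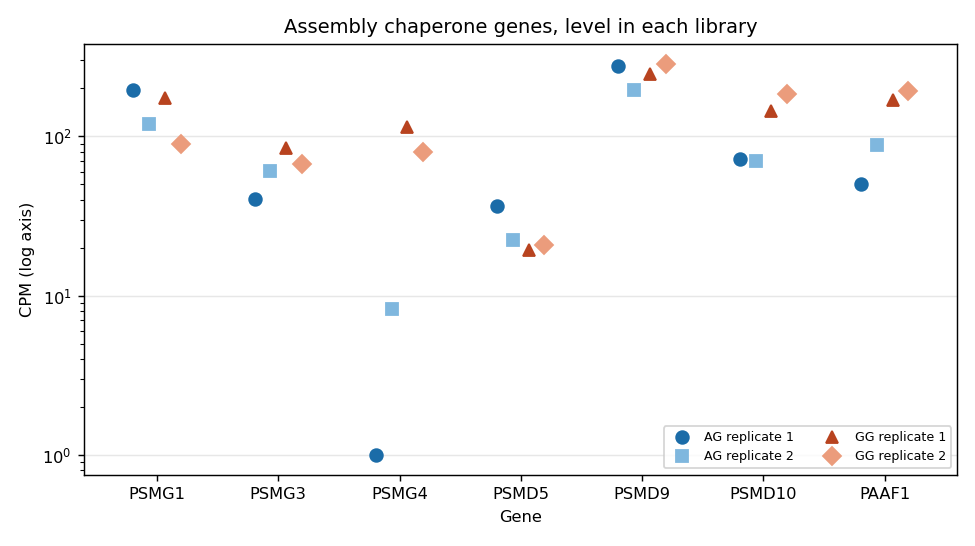
Level in CPM (log axis) of 6 assembly genes and PAAF1 in each of the 4 libraries, blue for AG and red for GG. PSMG4 rises from 0.997 and 8.23 CPM in AG to 115 and 79.7 CPM in GG. The AG and GG points of PSMG3, PSMD10 and PAAF1 are also apart with GG higher, and those of PSMD5 with GG lower. The groups did not overlap for 64.1% of all tested genes.

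PSMD10 (ENSMMUG00000016981), known as gankyrin, helps assemble the ATPase ring by binding PSMC4. It had 1010 and 1368 counts in AG and 3059 and 5400 counts in GG, or 71.9 and 69.5 CPM against 145 and 184 CPM. The AG libraries were nearly equal and both GG libraries were higher. PSMD10 was 2.33-fold higher in GG (log2 fold change 1.22 ± 0.27 SE, 95% interval 0.56 to 1.88, edgeR adjusted p = 0.0422). The call was lost with the replicate number as a block (log2 fold change 1.21, adjusted p = 0.0529) and without GG replicate 1 or 2 (1.38 and 1.01, adjusted p = 0.197 and 0.347).

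PSMD10 is also the 1 proteasome gene of the 42 on the X chromosome in the RefSeq table. X-linked genes had a median log2 fold change of 0.61 over 390 tested, and 15.1% of them were called higher in GG. The part of X linkage in the PSMD10 value was not tested. Its X-linked neighbour ATG4A, an autophagy protease gene, stood at 29.3 and 28.8 CPM in AG and 30.3 and 38.3 CPM in GG (log2 fold change 0.24, edgeR adjusted p = 0.650).

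The other chaperones of the base were not called. PSMD5 stood at 36.3 and 22.3 CPM in AG and 19.3 and 20.9 CPM in GG (log2 fold change -0.54, 95% interval -1.48 to 0.40). PSMD9 stood at 277 and 196 CPM in AG and 245 and 286 CPM in GG, overlapping, at 0.17. PAAF1, a base chaperone outside the symbol rule, stood at 50.2 and 88.2 CPM in AG and 169 and 193 CPM in GG. Both GG libraries were higher, and the log2 fold change of 1.39 ± 0.35 SE just missed the threshold (edgeR adjusted p = 0.0551). It passed with DESeq2 (adjusted p = 0.00412) and with the replicate block (adjusted p = 0.0418). It was not called without GG replicate 1 or 2.

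Among the other genes of the ubiquitin and proteasome pathway, 24 of 30 had a row, each passed the filter, and 0 were called (edgeR, 5 at an unadjusted p under 0.05, all higher in GG; DESeq2 called 3 higher in GG). The 5 are 20.8% of the 24, against 32% of all tested genes, and the 3 are 12.5%, as among all genes tested by DESeq2. The median log2 fold change was 0.24, with 13 above 0 and 11 below. SEM1, the smallest subunit of the lid, stood at 197 and 160.5 CPM in AG and 379 and 321 CPM in GG, a log2 fold change of 0.97 ± 0.25 SE that was not called (edgeR adjusted p = 0.0568). DESeq2 called it (adjusted p = 0.0253), and so did edgeR without either AG library, where the spread comes from the GG pair (adjusted p = 0.0285 and 0.0398), with genes under a mean of 10 CPM left out (0.0498) and with no genes filtered (0.0457). NFE2L1, the transcription factor that raises proteasome genes when proteasome activity is short, stood at 6.70 and 11 CPM in AG and 25 and 18.9 CPM in GG. Its groups were apart, with a log2 fold change of 1.31 ± 0.43 SE that was not called (adjusted p = 0.102). DESeq2 called it (adjusted p = 0.0333). Neither SEM1 nor NFE2L1 was called without GG replicate 1 or 2.

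NFE2L2, a related factor of the oxidative stress response, stood at 44.7 and 138 CPM in AG and 70.4 and 79.5 CPM in GG, overlapping. The ubiquitin genes UBB and RPS27A had log2 fold changes of -0.73 and -0.33, and the ubiquitin-activating enzyme gene UBA1 had -0.52; in each, both GG libraries lay below both AG libraries and none was called (adjusted p = 0.209 to 0.348). UBA6, the second activating enzyme, had 0.92 (adjusted p = 0.125). VCP, the segregase that pulls ubiquitinated proteins from complexes, stood at 251 and 312 CPM in AG and 287 and 393 CPM in GG, overlapping.

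Of the genes that share only the letters, PSMC3IP stood at 36.5 and 31.6 CPM in AG and 65.1 and 62.9 CPM in GG. It had a log2 fold change of 0.91 ± 0.29 SE and was not called (edgeR adjusted p = 0.0941). Its span overlaps those of many other genes in the RefSeq table, so its counts are uncertain. PSME3IP1 had 0.10 (95% interval -0.64 to 0.83).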

How the data were processed

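RNA was measured in 2 AG and 2 GG libraries. The authors deposited estimated counts per Ensembl gene, unscaled, 1 column per library; from 30.0% to 32.2% of values were not whole. Per the submitters' processing notes, the build was rheMac8, and Salmon 0.12.0, STAR 2.6.0c and Trim Galore were used. Nothing used here gives the annotation or the strand setting. Counts of near copies and overlapping genes may be split between them.

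Symbols were matched by identifier for 14654 of 21314 genes (68.8%). Counts were rounded and tested over all genes with edgeR 4.0.16 in R 4.3.3 (quasi-likelihood F test, filterByExpr with minimum count 10 and minimum total 15, TMM, Benjamini-Hochberg; group alone in the model) and, as an alternative, DESeq2 1.42.0. CPM used TMM-adjusted totals. Standard errors and 95% intervals follow from the F statistic. Ratios used a pseudocount of 0.5 counts. The test was checked on simulated data.

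The members and lists were chosen with earlier results of these data known. Values in every library are given for called members, for immunoproteasome, PSMA8, PSMB11 and PSME genes, and for the members of each class with the largest and smallest fold change and the highest CPM, which served only this choice; NFE2L1, NFE2L2 and called pathway genes were added. Others were chosen after their values were seen. Neighbours and chromosomes come from RefSeq's T2T-MMU8v2.0, another build, so no coordinates are given. Values of some listed genes are not reported here.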

Additional observations from a re-analysis of the deposited data

How the results depend on the processing

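The median log2 fold change of proteasome genes was 0.15 to 0.32 over all alternatives, and the ratio of summed levels was 1.12 to 1.19. The PSMB8 to PSMB5 difference took both signs with 1 library left out (-0.72 to 0.75). Leaving out 1 library gave 0 to 10 proteasome genes higher in GG and 0 to 2 higher in AG, 0 to 5 and 0 to 1 pathway genes, and 69 to 3942 of all genes. The 10 and 3942 came without AG replicate 2, where 29.3% of proteasome genes and 29.8% of all genes were called. Without a filter on low counts, 1 proteasome gene was higher in AG, 2 pathway genes were higher in GG and 2609 genes were called. DESeq2 gave 1, 3 and 3333, and 2 interferon genes. A minimum mean of 10 CPM gave 2 pathway genes, and thinning to the shallowest library, added after the data were seen, gave 1.

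The labels do not say whether the shared replicate numbers mark a pair. The replicate differences of the groups had a correlation of 0.0895 across genes. With 1 difference per group and genes that are not independent, this cannot decide it. With the replicate block, 1 proteasome gene, PSMG4, and 1 pathway gene were called higher in GG, and PSMC4 turned to 0.01. Other signs turned when 1 library was left out, all of genes that were not called, and the cause was not tested: PSMB8 (-0.31 to 0.70), PSMA8 (-0.24 to 1.11), PSME1 (-0.04 to 1.83), PSME3 (-0.09 to 0.47), PSME4 (-0.08 to 0.32), PSMA3 (-0.13 to 0.05), PSMC4 (-0.19 to 0.18), PSMG1 (-0.81 to 0.14), PSMB4 (-0.26 to 0.45), PSMB5 (-0.16 to 0.53), PSMC2 (-0.16 to 0.53), PSMC3 (-0.12 to 0.18), PSMD8 (-0.04 to 0.25), PSMD9 (-0.09 to 0.44), PSMD13 (-0.13 to 0.68), PSMD14 (-0.19 to 0.29) and NFE2L2 (-0.88 to 0.72). Upper-quartile normalization turned PSMC4 (0.01). PSMB8, at 13 to 34 counts, and PSMG4 in AG replicate 1, at 14, are limited by depth.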
